A study of Homo sapiens with 3 samples.

Results

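Aminoacyl-tRNA synthetases join each amino acid to its tRNA, and the 37 genes considered here are 19 that encode enzymes of the cytosol (GARS1 and KARS1 serve mitochondria as well), 15 that encode enzymes of mitochondria, and 3 scaffold proteins of the multisynthetase complex. Members were all probe sets that the array's annotation ties to exactly 1 of these symbols: 69 of 54613 probe sets, from 32 of 19775 named genes. MARS1, QARS1, TARS2, AIMP2 and EEF1E1 had no such probe set and have no values here. The remaining 32 were 17 cytosolic synthetases, 14 mitochondrial synthetases and the scaffold protein AIMP1.

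The values come from 3 single-colour Affymetrix arrays of total RNA from HCT116, a human colorectal carcinoma line. The cells were infected with lentivirus carrying a scrambled short hairpin RNA (1 array, the control), UHRF1 hairpin 2 (1 array) or UHRF1 hairpin 5 (1 array), and every culture was under puromycin for 6 days before harvest. The comparison asks which transcripts depend on UHRF1, a chromatin protein needed to keep DNA methylated through replication. Only 2 arrays carry UHRF1 hairpins, each a different hairpin, and the labels do not say that the arrays came from separate cultures, so p-values measure only the spread between these arrays. Values are on a log2 scale, in which a difference of 1 is 2-fold, and a pair of differences gives hairpin 2 minus control first and hairpin 5 minus control second. Where 3 levels are listed, they are the control, hairpin 2 and hairpin 5 in that order. Both differences use the same control array, so an unusual control value moves both.

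The cytosolic enzymes charge tRNA for the ribosomes of the cytosol, and most mitochondrial enzymes are products of separate nuclear genes that are imported to charge mitochondrial tRNA. The enzymes fall into class I and class II by the fold of their catalytic domain. When uncharged tRNA accumulates, the kinase GCN2 phosphorylates eIF2, translation of the transcription factor ATF4 rises, and ATF4 activates amino acid synthesis, amino acid transport and many cytosolic synthetase genes through amino acid response elements in their promoters. Of the members, 13 cytosolic genes often named as ATF4 targets were set apart as ATF4-listed: AARS1, CARS1, EPRS1, GARS1, IARS1, LARS1, MARS1, NARS1, SARS1, TARS1, VARS1, WARS1 and YARS1. All but MARS1 had values. Because earlier results of these arrays were known when this list was drawn up, it is not independent evidence of its own direction.

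Promoter sequences were looked up in RefSeq (GRCh38.p14, 250 bases before to 50 after each annotated start), which held 32 of the 37 genes. They were searched on both strands for TGATGNAA, the core letters of the amino acid response element. Of 10 ATF4-listed genes with a window, 7 held the letters, against 0 of 6 other cytosolic genes, 1 of 13 mitochondrial genes (YARS2), 0 of 3 scaffold genes and 3.62% of all 35116 promoter windows. Members were counted by gene, with a match in any of its windows, and the share of all was counted by window. A gene can have more than 1 window, so these are unlike units. With the stricter TGATGCAA, a special case of the same letters, 6 of the 10 matched, 0 of the mitochondrial genes did, and 0.866% of all windows did. ATF4 acts through such elements, so a higher share among genes named as its targets is not independent evidence. The 30-base stretches around all 8 matches are shown so that their letters and strand can be set beside the values that follow, which do not include MARS1. Each runs 5′ to 3′ on the gene's strand with the match in capitals, and it lies on the opposite strand in all but NARS1 and YARS2.
CARS1, chr11:3057407-3057436: cggggcggcggTTGCATCAgattctaggaa
AARS1, chr16:70289675-70289704: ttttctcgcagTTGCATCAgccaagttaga
IARS1, chr9:92293692-92293721: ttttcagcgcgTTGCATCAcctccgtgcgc
TARS1, chr5:33440956-33440985: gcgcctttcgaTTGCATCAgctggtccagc
NARS1, chr18:57621804-57621833: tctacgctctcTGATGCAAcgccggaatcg
MARS1, chr12:57488053-57488082: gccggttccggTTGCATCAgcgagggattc
GARS1, chr7:30594834-30594863: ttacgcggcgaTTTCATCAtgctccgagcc
YARS2, chr12:32756076-32756105: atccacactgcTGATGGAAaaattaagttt
In CARS1 and MARS1 the match spans the annotated start, and in TARS1 and NARS1 it begins 3 and 15 bases into the transcript. The AARS1 match begins 187 bases before the start, the GARS1 match 33 and the IARS1 match 13. EPRS1, SARS1 and WARS1 had a window without the letters, which says only that they are not in that window. WARS1, whose enzyme is known to be induced by interferon, held a match to the core of the interferon-stimulated response element (both strands searched) on its own strand, from 55 bases before the start. That core was in 3.57% of all windows and, among members, also in EARS2.
WARS1, chr14:100375383-100375412: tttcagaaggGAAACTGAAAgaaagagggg

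The arrays were alike in scale, with medians from 2.98 to 3.04 and Pearson's r across probe sets of 0.987 to 0.989 between arrays. The UHRF1 transcript itself was at 8.54 on the control array, at 6.20 under hairpin 2 and at 6.67 under hairpin 5, so both hairpin arrays lay below the control by more than their own distance. Of 9 epithelial markers, 8 were at the level used for testing, which is the 40th percentile of gene means (log2 3.28), with KRT18 at 12.26 on the control array. The intestinal marker VIL1 was under that level on every array (3.11 to 3.13). The 5 measured leukocyte markers all read from 2.51 to 3.09, under the tested level. Among fibroblast and endothelial markers COL1A1, PDGFRB, THY1 and PECAM1 reached it. Their mean differences from the control were 0.25, 0.38, 0.38 and 0.15, and their part in the synthetase values was not tested.

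The cytosolic synthetases of the ATF4 list read lower on both UHRF1 hairpin arrays than on the control, while the mitochondrial synthetases lay on both sides of it. All 12 measured ATF4-listed genes lay below the control on both arrays, with a median difference of −0.47 with hairpin 2 and −0.57 with hairpin 5. Over all 11865 genes tested, 32.3% lay below the control on both arrays, and the medians were 0.03 and −0.06. The other 5 cytosolic genes had medians of 0.11 and 0.01, and the 13 tested mitochondrial genes had medians of 0.07 and −0.18. No synthetase passed limma's test over all genes (lowest adjusted p of any member 0.999), and 0 of all genes tested did, 0% of them. At an unadjusted p under 0.05 in limma, 3 of the 31 tested members were lower (CARS1, YARS1 and GARS1) and 0 higher. Of all 11865 genes tested, 186 (1.57%) were lower and 91 higher.

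Averaged over the hairpins, 5 of the 31 tested members (16.1%) were at least 1.5-fold lower than the control, beside 4.12% of all genes tested. They were CARS1, YARS1, GARS1, WARS1 and AARS1, all of them ATF4-listed, and no member was 1.5-fold higher, beside 2.38% of all genes. With each gene as the mean of its probe sets there were 3 (AARS1, GARS1 and SARS1), beside 1.76% of all genes. By hairpin, 3 members were at least 1.5-fold lower with hairpin 2 (CARS1, GARS1 and WARS1), beside 3.14% of all genes. With hairpin 5, 5 were (AARS1, CARS1, GARS1, LARS1 and YARS1), beside 9.79% of all genes. No member was 1.5-fold higher with either hairpin, where 5.93% of all genes were with hairpin 2 and 2.84% with hairpin 5.

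**Figure D1:**
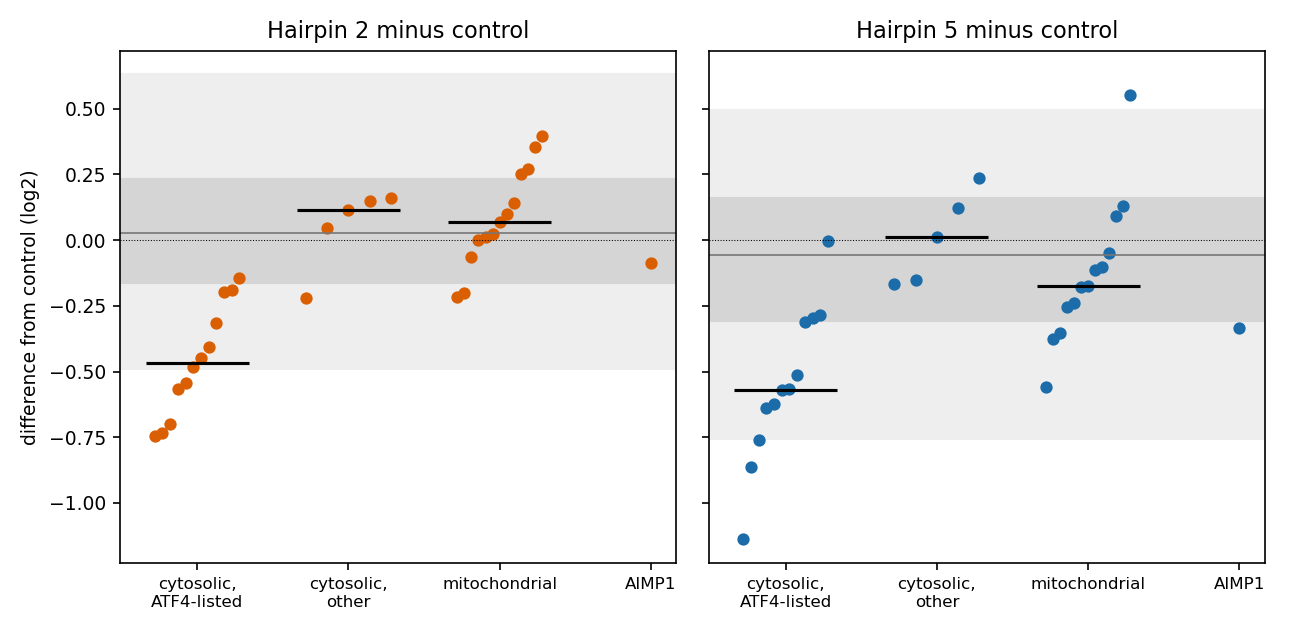
Difference from the control (log2) with hairpin 2 (left) and hairpin 5 (right) for each tested member, 1 point per gene, by group. Black bars are group medians; the dark and light grey bands hold the middle 50% and 90% of all 11865 genes tested, and the grey line is their median. The 12 ATF4-listed cytosolic genes have medians of −0.47 and −0.57, and the 13 mitochondrial genes have medians of 0.07 and −0.18.

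CARS1, which charges cysteine tRNA, stood furthest from the control among the members. It had a level of 10.76 in the control, 10.06 under hairpin 2 and 9.62 under hairpin 5, a difference of −0.92 ± 0.31 (SD, n = 2 hairpins). Both hairpin arrays were lower, hairpin 5 by 2.20-fold and hairpin 2 by 1.62-fold, and 0.801% of all genes tested had a lower mean difference. Its next brightest probe set went the same way, at 7.85, 7.40 and 6.92 on the control, hairpin 2 and hairpin 5 arrays.

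YARS1, the cytosolic tyrosine enzyme, read 9.24 on the control, 8.67 on the hairpin 2 and 8.38 on the hairpin 5 array. The difference was −0.71 ± 0.21 (SD, n = 2 hairpins), and both hairpin arrays lay below the control. It rests on the brighter of its probe sets, since the dimmer one, at 4.37 on the control array, differed by −0.04 and −0.01.

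GARS1, which makes both the cytosolic and the mitochondrial glycine enzyme, had a level of 9.70 in the control, 8.95 under hairpin 2 and 9.07 under hairpin 5. Its single probe set differed by −0.68 ± 0.09 (SD, n = 2 hairpins), and hairpin 2 was the lower array. KARS1, the other gene that serves both compartments and charges lysine tRNA, is not ATF4-listed and read 11.07, 10.85 and 10.90. Its second probe set read 9.52 on the control array, and 9.59 and 9.74 with hairpins 2 and 5, so the KARS1 probe sets lay on opposite sides of the control.

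WARS1, the cytosolic tryptophan enzyme, read 8.16 on the control, 7.42 on the hairpin 2 and 7.59 on the hairpin 5 array. The difference was −0.65 ± 0.12 (SD, n = 2 hairpins), with both hairpin arrays below the control, and its second probe set differed by −0.24 and −0.21. Interferon-stimulated genes were also looked at, 13 measured of a list of 14, with no filter on level. Their log2 values summed to 54.5 on the control, 96.8 on the hairpin 2 and 60.01 on the hairpin 5 array. A sum of log2 values is not a summed expression, and the 10 tested genes had median differences of 4.34 and 0.28. IFIT1 read 3.22, 10.01 and 5.41, and IFITM1 read 4.15, 10.46 and 5.66. The list also holds genes best known for their response to interferon gamma, as WARS1 is: GBP1 (2.54, 2.50 and 2.71) and IDO1 (3.13, 2.89 and 2.97) were under the tested level on all 3 arrays, and IRF1 differed by 0.40 and 0.23. The part of the interferon-stimulated genes in the WARS1 values was not tested.

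AARS1, the alanine enzyme, had a level of 9.03 in the control, 8.58 under hairpin 2 and 8.27 under hairpin 5, a difference of −0.61 ± 0.22 (SD, n = 2 hairpins). SARS1, the cytosolic serine enzyme, which also puts serine on the separate tRNA used for selenocysteine, read 9.28, 8.74 and 8.77, and the hairpin arrays were closer to each other than for any other ATF4-listed gene (−0.53 ± 0.02, SD, n = 2 hairpins). A dimmer SARS1 probe set, at 5.77 in the control, 4.72 under hairpin 2 and 4.33 under hairpin 5, differed by more (mean −1.24). All arrays with a UHRF1 hairpin were thus below the control for both genes on every probe set they have.

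LARS1, the leucine enzyme of the multisynthetase complex, which also takes part in leucine sensing for mTORC1, read 8.36 on the control, 7.88 on the hairpin 2 and 7.72 on the hairpin 5 array. It differed by −0.56 ± 0.11 (SD, n = 2 hairpins). All 3 of its probe sets at the tested level were lower on both arrays, with means from −0.56 to −0.45.

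VARS1, NARS1, EPRS1, TARS1 and IARS1 were lower by smaller amounts. VARS1, the valine enzyme, had a level of 7.74 in the control, 7.59 under hairpin 2 and 7.17 under hairpin 5, and its second probe set, at 3.90 on the control array, stood at 0.01. NARS1, the asparagine enzyme, read 10.57, 10.17 and 10.28. EPRS1, a single protein that charges both glutamate and proline tRNA, read 8.71, 8.52 and 8.40, and its next probe set showed a larger difference (6.36, 5.85 and 5.65). TARS1, the threonine enzyme, read 8.95, 8.77 and 8.67. IARS1, the isoleucine enzyme, was below the control with hairpin 2 (10.23 against 10.54) and level with it with hairpin 5 (difference −0.003). Apart from IARS1 and VARS1, these genes stood on the same side with both hairpins by at least 0.19.

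The 5 cytosolic genes outside the ATF4 list had mean differences from −0.19 to 0.19. RARS1, the arginine enzyme of the complex, differed by 0.15 and 0.24, and the subunits of the phenylalanine enzyme by 0.11 and 0.01 (FARSA) and by 0.05 and 0.12 (FARSB). FARSA's other probe set was higher by 0.53 and 0.45. HARS1, the histidine enzyme, differed by 0.16 and −0.15, so the control lay between the hairpin arrays. KARS1 was the only gene of these 5 lower on both arrays, and only on its brighter probe set.

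**Figure D2:**
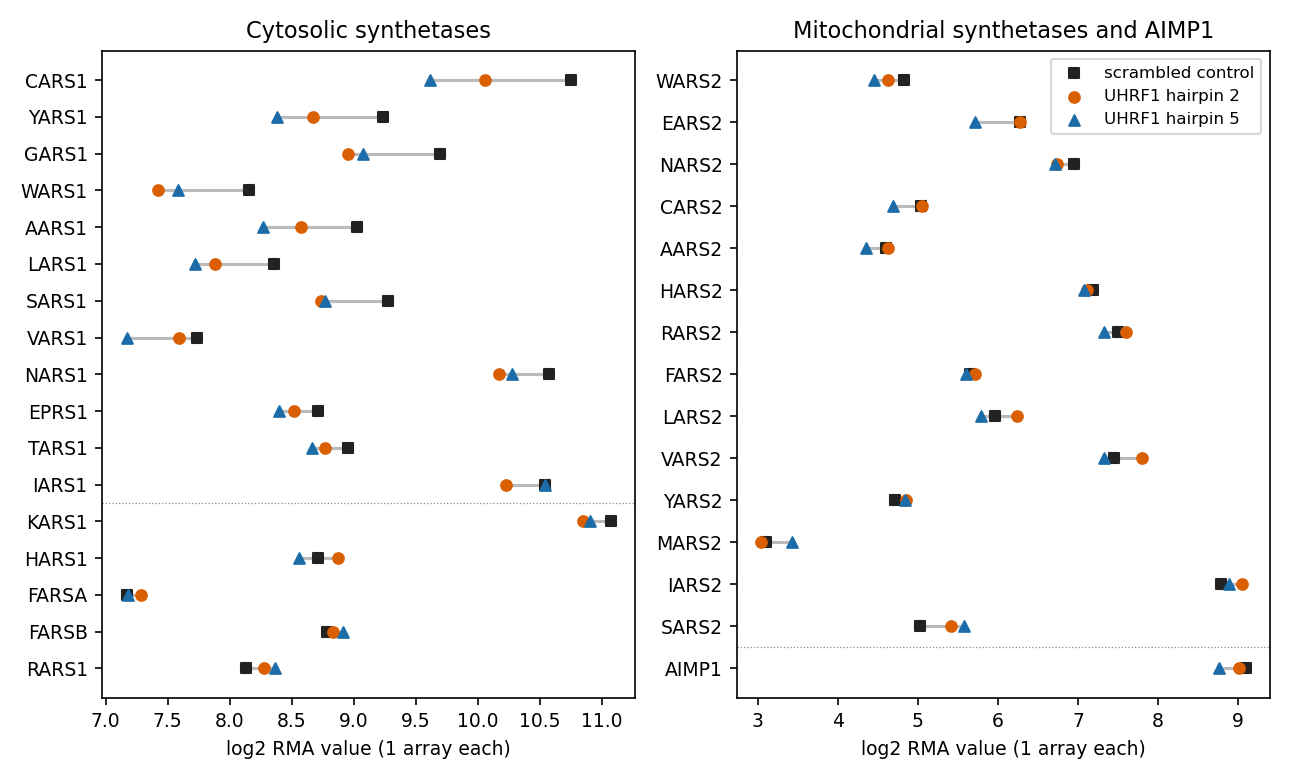
Log2 value of every measured member on the control (black squares), hairpin 2 (orange circles) and hairpin 5 (blue triangles) arrays, from the probe set that represents the gene. Left, cytosolic synthetases, ATF4-listed above the dotted line and others under it; right, mitochondrial synthetases, with AIMP1 under the dotted line. CARS1 spans 10.76 to 9.62, while HARS1 has the control between the hairpin arrays.

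The cytosolic genes were also set out by structural class and by membership of the multisynthetase complex. Class I genes had a median mean difference of −0.56 (7 genes) and class II of −0.24 (9 genes), with EPRS1, which holds an enzyme of each class, left out. Within the ATF4 list the classes were closer, at −0.61 for 6 class I genes and −0.53 for 5 class II genes. Complex members (EPRS1, IARS1, KARS1, LARS1 and RARS1) had a median of −0.19, and the 12 enzymes outside it −0.44. Within the ATF4 list, 3 complex members had a median of −0.25 and 9 genes outside it −0.61. AIMP1, the measured scaffold protein, differed by −0.09 and −0.34 on its brightest probe set, and its dimmer probe sets stood at means of 0.07 and −0.16. These are descriptions of small sets, with no test.

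Mitochondrial synthetases spread on both sides of the control, with more of them below it under hairpin 5. With hairpin 2, 3 of 13 tested genes lay below it, and with hairpin 5, 10 did, beside 5466 and 6758 of all 11865 genes. Of the 13 tested, 3 were lower on both arrays (HARS2, NARS2 and WARS2), 3 higher on both (IARS2, SARS2 and YARS2) and 7 neither, where 32.3% of all genes tested were lower and 29% higher on both. None was 1.5-fold from the control with either hairpin. Over all genes tested, 3.14% were lower and 5.93% higher by that fold with hairpin 2. With hairpin 5 the shares were 9.79% and 2.84%. MARS2, the mitochondrial methionine enzyme, read 3.10, 3.04 and 3.42, and its mean was under the tested level.

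SARS2, the mitochondrial serine enzyme, was the member furthest above the control. It read 5.02 on the control, 5.42 on the hairpin 2 and 5.58 on the hairpin 5 array, a difference of 0.47 ± 0.11 (SD, n = 2 hairpins). Both hairpin arrays lay above the control, the reverse of its cytosolic counterpart SARS1. WARS2, the mitochondrial tryptophan enzyme, was furthest below, at 4.83 in the control, 4.63 under hairpin 2 and 4.46 under hairpin 5 (−0.29 ± 0.12, SD, n = 2 hairpins).

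The hairpins differed most from each other at EARS2, VARS2, LARS2 and CARS1, and no member differed 1.5-fold between them, beside 14.7% of all genes tested. EARS2, which charges mitochondrial glutamate tRNA, had a level of 6.28 in the control, 6.28 under hairpin 2 and 5.72 under hairpin 5. As the mean of its 4 probe sets it stood at 0.08 and −0.05. VARS2, the mitochondrial valine enzyme, read 7.45, 7.80 and 7.33, and LARS2, the mitochondrial leucine enzyme, read 5.97, 6.24 and 5.79. For both, hairpin 2 was above the control and hairpin 5 below it.

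Set beside each other by amino acid, the cytosolic enzyme had the lower mean difference in 9 of 11 amino acids with a single gene for each compartment. In all 9 the cytosolic gene was ATF4-listed, so the count repeats the contrast of that list. The pairs were not matched for level. In each of the 11 the mitochondrial gene read lower on the control array, as SARS2 (5.02) beside SARS1 (9.28). The part of level in these gaps was not tested. The median of the cytosolic minus the mitochondrial difference was −0.48, from −1.001 for serine to 0.23 for arginine. With hairpin 2 the cytosolic enzyme was the lower of them in 9 of 11 and with hairpin 5 in 10 of 11. Tyrosine (−0.85), cysteine (−0.75) and leucine (−0.61) followed serine. Histidine (0.09) and arginine (0.23), whose cytosolic genes are outside the ATF4 list, were the exceptions. Phenylalanine, whose cytosolic enzyme has subunits from separate genes, is not among the 11, and there both FARSA (by 0.052) and FARSB (by 0.075) had a higher mean difference than the mitochondrial FARS2.

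**Figure D3:**
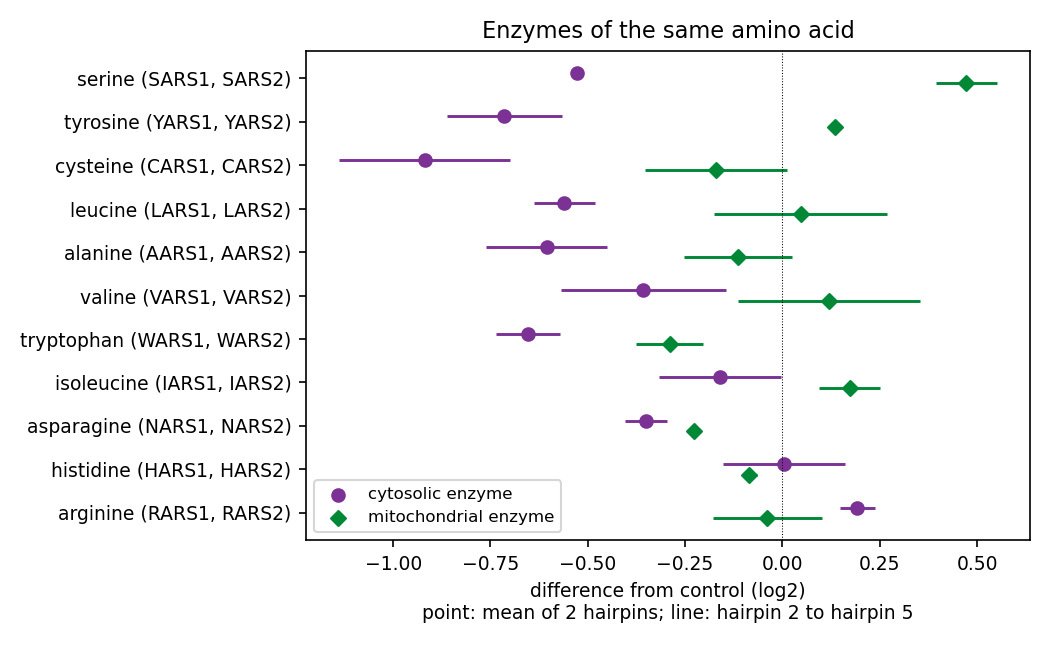
Difference from the control (log2) of the cytosolic (purple circles) and mitochondrial (green diamonds) enzymes of 11 amino acids. Points are the mean of the hairpins and lines run from hairpin 2 to hairpin 5; the widest gap is serine (−1.001) and the cytosolic enzyme is the higher of the 2 only for histidine and arginine.

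The members were also compared over every probe set at the tested level, with no choice of 1 per gene. Of 20 probe sets of ATF4-listed genes, 19 were below the control on both arrays and 8 at least 1.5-fold lower on average, with a median of −0.50. The 7 probe sets of other cytosolic genes had a median of 0.09, with 1 below the control on both arrays, and the 22 of mitochondrial genes a median of 0.02, with 5 below. Over all 19251 named probe sets at that level the median was 0.0005, 31.2% were below the control on both arrays and 3.89% were at least 1.5-fold lower.

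**Figure D4:**
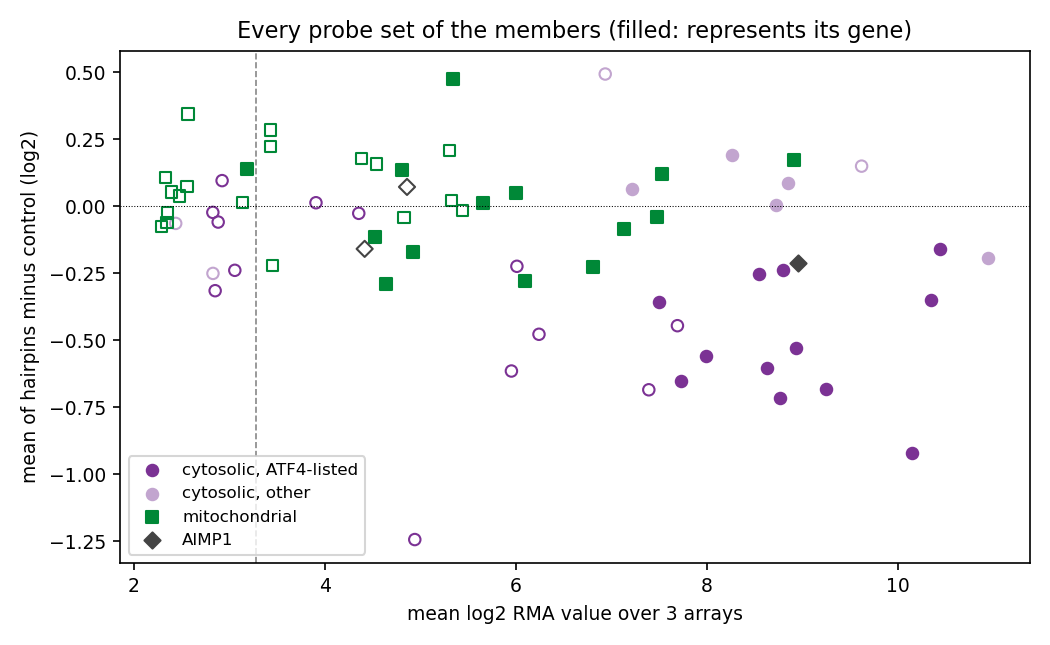
Mean difference from the control (log2) of all 69 member probe sets against their mean log2 value over the 3 arrays; filled symbols represent their gene and the dashed line is the tested level (3.28). Most ATF4-listed probe sets right of the line lie below 0 (median −0.50), and the lowest is a dimmer SARS1 probe set at −1.24.

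Of 27 tested genes of an ATF4 list without synthetases, 20 were below the control on both hairpin arrays, beside 32.3% of all genes tested, and 5 were above it on both, beside 29%. At least 1.5-fold lower were 11 with hairpin 2, beside 3.14% of all genes, and 12 with hairpin 5, beside 9.79%. None was higher by that fold with either hairpin, and the medians were −0.49 and −0.50. Among those above the control were NUPR1 (0.55 and 0.58), a stress-induced chromatin protein, and PYCR1 (0.44 and 0.37), an enzyme of proline synthesis, both chosen after their values were seen. TRIB3, a pseudokinase that dampens ATF4 activity, differed by −1.78 and −1.76, and DDIT3, a transcription factor of the stress response, by −1.37 and −2.04. ATF4 itself, which is controlled mainly through its translation, differed by −0.32 and −0.32. No gene of the list passed limma over all genes (lowest adjusted p 0.999), and earlier results on these arrays were known when this list was written. In the eIF2 and GCN2 list, 1 of 16 tested genes was 1.5-fold lower with hairpin 2 and 3 with hairpin 5, beside the same 3.14% and 9.79% of all genes. On both arrays 6 of the 16 were below the control and 6 above it. Its lowest members were EIF4EBP1, an inhibitor of cap-dependent translation (−0.60 and −0.63), and EIF2AK4, which encodes GCN2 (−0.30 and −0.81). EIF2AK2, the interferon-inducible eIF2 kinase, was 1.85 higher with hairpin 2 and differed by −0.15 with hairpin 5, and was chosen after its value was seen.

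Genes that act on tRNA beside the synthetases were also listed. Among 9 tested charging partners the medians were −0.01 with hairpin 2 and −0.42 with hairpin 5, and 2 were at least 1.5-fold lower on average, beside 4.12% of all genes tested. These were the deacylases DTD2 (−0.84 and −0.66) and DTD1 (−0.52 and −0.68), which remove amino acids from tRNA. The 19 tested genes of tRNA maturation and export had medians of 0.07 and −0.10, with CDKAL1 (0.25 and 0.41) and ELP3 (0.48 and 0.06), which modify tRNA, at the higher end. XPOT, the nuclear exporter of tRNA and also often named as an ATF4 target, was the lowest of them (−0.47 and −0.79) and was chosen after its value was seen. Cytosolic elongation factors had medians of −0.01 and 0.00 over 5 tested genes, with EEF1A2 (0.44 and 0.00) and EIF5A (0.17 and −0.06) highest. EEF1D was lowest (−0.30 and −0.44) and the only one of these below the control on both arrays. It was chosen after its value was seen. Mitochondrial translation factors had medians of −0.11 and −0.12 over 8 tested genes, with the elongation factor GFM1 (−0.39 and −1.05) and the initiation factor MTIF3 (−0.16 and −0.73) lowest.

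**Figure D5:**
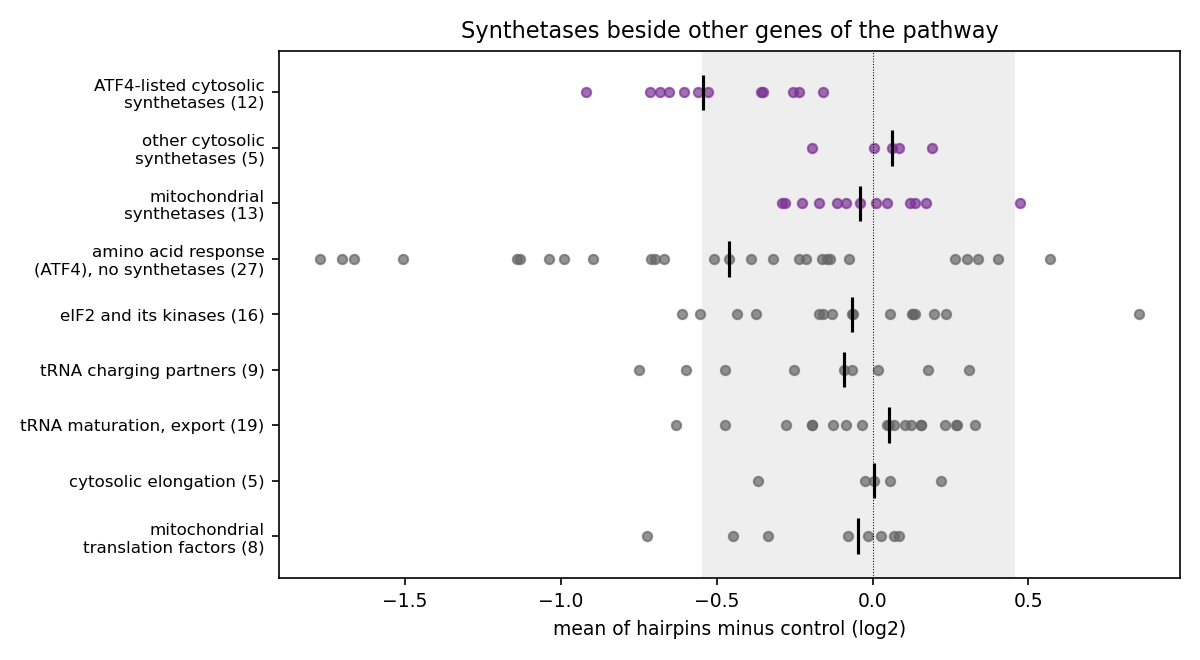
Mean of the hairpins minus control (log2), 1 point per tested gene, for the synthetase groups (purple) and 6 lists of related genes (grey); numbers in brackets are genes, black bars medians, and the grey band the middle 90% of all genes tested. ATF4-listed synthetases (median −0.54) and the other ATF4 genes (median −0.46) lie lowest, and the remaining medians lie between −0.09 and 0.06.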

How the data were processed

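Per the submitters' processing notes, the authors used RMA and Affymetrix Expression Console to make the deposited log2 values of the 3 arrays. Versions and settings are not given in the sources used here. Log base 2 was read off the range of values (1.95 to 14.06 in the control). There are no detection calls, and the number of arrays limits the precision. The platform's annotation gave 1 gene for 41091 probe sets, several for 1801 and none for 11721, and 41037 were matched to RefSeq GRCh38.p14 by gene ID. For each gene the probe set of highest mean was taken, and genes under the 40th percentile of these means were not tested, which left 11865. The test was limma 3.58.1 in R 4.3.3 (lmFit, then eBayes; two-sided; Benjamini-Hochberg over all genes tested), 2 hairpin arrays against 1 control. With 1 residual degree of freedom, moderated to 5.77, the control is taken to vary as the hairpin arrays do. The fit was tested on simulated data. An exact permutation over the arrays cannot go below p = 0.333. Differences of a single hairpin set 1 array against 1 and have no test.

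Members and lists were chosen with earlier results of these data known. Array values are given for UHRF1, the 14 members with the largest mean difference, the 4 with the largest difference between hairpins, and others by role. From each list of related genes the 2 furthest in the direction of its median are named, and ATF4. Alternatives were the average over probe sets, no _x_at probe sets, median centring, cyclic loess, other filters, other priors, other folds and each hairpin alone.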

Additional observations from a re-analysis of the deposited data

How the results depend on the processing

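The single control array and the lack of detection calls limit every value. No paired analysis was possible because the labels give no replicate numbers and there is 1 control array. The number of genes passing limma was 0 in every setting but eBayes with an intensity trend, where it was 1 (HSPE1), and where the lowest adjusted p of a member was 0.908. The cytosolic median of −0.35 stayed below 0 but moved by more than the narrow spread of the hairpin medians. It was −0.30 with the mean of probe sets, −0.36 with median centring, −0.31 with cyclic loess, and −0.32 to −0.31 with 1 hairpin left out. Members 1.5-fold lower with hairpin 5 were 8 with median centring and 3 with cyclic loess, not 5. The hairpin 5 median over all genes tested moved too, from −0.056 to −0.098 with median centring and −0.014 with cyclic loess. At 2-fold there were 0 with hairpin 2 and 1 with hairpin 5, and at a log2 difference of 0.32 there were 8 and 12. The shares of all genes at these cutoffs and settings were not counted, but percentiles in the main setting bound those at the cutoffs. Over all genes tested, the 5th and 25th percentiles were −0.492 and −0.165 with hairpin 2, and −0.757 and −0.308 with hairpin 5. Under 5% of all genes were thus 2-fold lower with either hairpin. Between 5% and 25% were lower by 0.32, and with hairpin 5 the 25th percentile was close to that cutoff. The median of hairpin 2 minus hairpin 5 over members was 0.12, and −0.012 with cyclic loess. Of the 12 ATF4-listed genes, 11 lay below the control on both arrays with cyclic loess and 11 with the mean of probe sets. With cyclic loess, 6 rather than 3 mitochondrial genes did. EARS2 turned to 0.014 with the mean of probe sets. With each hairpin alone EARS2 ranged from −0.56 to 0.00, LARS2 from −0.18 to 0.27 and VARS2 from −0.11 to 0.35. AARS2, CARS2, FARS2, HARS1 and RARS2 also lay on opposite sides of the control with hairpin 2 and hairpin 5. The cause was not tested. The mean difference of HARS1 was 0.0045, and −0.004 with median centring. With the mean of probe sets FARSB turned from 0.085 to −0.077 and FARS2 from 0.01 to −0.022. In that setting CARS2 turned from −0.171 to 0.093, AARS2 from −0.1145 to 0.031 and RARS2 from −0.039 to 0.069. The mitochondrial median turned with them, from −0.039 to 0.051. MARS2 was at −0.053 with hairpin 2 alone and 0.326 with hairpin 5 alone. CARS1, YARS1, GARS1, WARS1, AARS1, LARS1, SARS1, VARS1, NARS1, EPRS1, TARS1, SARS2 and WARS2 kept their direction in the settings run.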
